A study of Homo sapiens with 2 samples.

Results

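The 10 genes described here were the G1 cyclins CCND1, CCND2, CCND3, CCNE1 and CCNE2, the cyclin-dependent kinases (CDKs) CDK2, CDK4 and CDK6, and the CDK inhibitors CDKN1A and CDKN1B. They were chosen by name, with earlier results of these data known. Every IGF2BP3 peak that shared at least 1 bp with the GENCODE 44 span of a member (hg38) was taken. This gave 24 of the 21142 peaks in replicate 1 and 23 of the 20799 peaks in replicate 2, and 10 of 20046 protein-coding genes.

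IGF2BP3 is an RNA-binding protein that is described as a reader of N6-methyladenosine (m6A), a methyl mark on adenosines of mRNA. Its RNA targets were mapped by LACE-seq, in which RNA is crosslinked to protein by ultraviolet light, pulled down with an antibody and reverse transcribed, so that piled-up reads mark where the protein sat. Both samples came from OE-19, a cell line derived from a tumour at the esophagogastric junction (an adenocarcinoma), grown in RPMI1640 medium with fetal bovine serum and antibiotics, with no treatment or genetic change named in the labels. They form 1 group of 2 replicates, so the data describe where peaks lay in 1 cell line and how well they recurred, and hold no contrast between conditions.

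D-type cyclins bind CDK4 or CDK6 in G1 and start the phosphorylation of the retinoblastoma protein, which releases E2F transcription factors. E-type cyclins then bind CDK2 and carry cells into S phase. CDKN1A (p21) and CDKN1B (p27) bind these cyclin-CDK complexes and restrain them, and the balance between the groups sets whether a cell leaves G1.

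Overlapping peaks of both replicates were found in 5 of the 10 genes, namely CCND1, CCND3, CDK6, CDKN1A and CDKN1B. A further 2, CCNE2 and CDK4, had peaks in replicate 1 only, and the remaining 3, CCND2, CCNE1 and CDK2, had no peak in either list. Thus 7 members had a peak in replicate 1, where 41% of all protein-coding genes had one, and 5 in replicate 2, where 42.2% did. The 5 members with peaks in both lists compare with 34.7% of all protein-coding genes with a peak in both, and with 30.5% whose peaks overlapped. With 10 genes chosen by name and with earlier results of these data known, these shares are a description. No input or IgG library and no RNA level was analysed here, so the part of RNA abundance in the number, reads or fold of peaks was not tested.

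The peaks merged into 26 sites, of which 20 were in both lists, 4 in replicate 1 only and 2 in replicate 2 only. Sites are numbered along each gene from its 5′ end. CDK6 held 11 of the 26, CCND1 held 6, CCND3 held 4, CDK4 held 2, and CCNE2, CDKN1A and CDKN1B held 1 each. For each site, fold is the deposited enrichment at the summit over the local background, and reads is the pileup at the summit that was recovered from the deposited fold and p-value. The maps of the 7 mRNAs with a peak show where these sites lie.

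**Figure D1:**
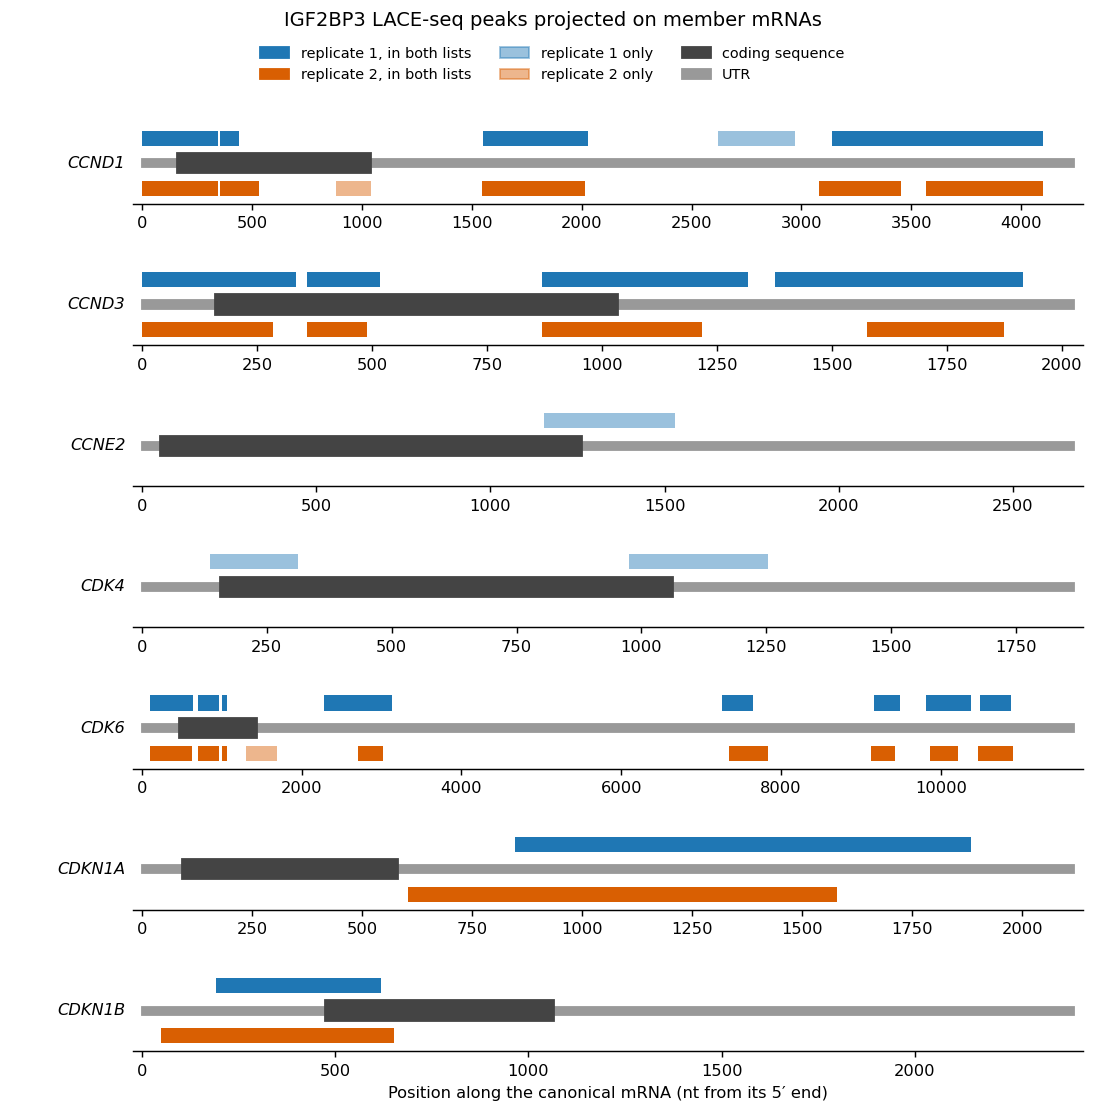
IGF2BP3 peaks projected on the canonical mRNA of the 7 members with a peak, with the position from the 5′ end in nt on the horizontal axis (a separate scale for each gene). Blue bars above each mRNA are replicate 1 and orange bars below are replicate 2, with pale bars for peaks in that list only; thick dark grey is coding sequence and thin grey is UTR. Bars lie over the start codon of CCND1, CCND3, CDK6 and CDKN1B in both replicates, and intronic bases are not drawn.

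CCND1 encodes cyclin D1, a partner of CDK4 and CDK6, and spans chr11:69641156-69654474 on the plus strand. Its strongest site by fold covered the start codon in exon 1 (site 1, chr11:69640935-69641502). Fold was 10.6 in replicate 1 and 12.2 in replicate 2 (mean 11.4 ± 1.12, SD, n = 2), with 59 and 85 reads, and the summits lay 1 bp apart in the 5′ UTR. Both peaks began upstream of the annotated start of the gene and reached codon 63. Both replicates were high there, and these folds exceeded 88.9% and 91.9% of all peaks in their lists.

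The next CCND1 site lay over the 3′ splice site in front of exon 2 (site 2, chr11:69642817-69643207). Fold was 5.55 in replicate 1 and 4.37 in replicate 2, with 34 and 32 reads. The summits were in the intron, 22 nt and 13 nt upstream of the exon, and the peaks ran into codons 67 to 95 and 67 to 125. A similar peak in front of exon 5 was called in replicate 2 only (site 3, chr11:69650977-69651277), at 3.97-fold with 77 reads. Its summit lay 32 nt upstream of the exon, and it covered codons 242 to 295.

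The other 3 sites of CCND1 were in its 3′ UTR of 3192 nt. Site 4 (chr11:69651784-69652264) began 510 nt and 505 nt after the coding end in replicates 1 and 2, with 4.45-fold and 5.07-fold and with 99 and 97 reads. Site 5 (chr11:69652858-69653207) was in replicate 1 only, with 4.42-fold and 92 reads. At site 6 (chr11:69653318-69654337), 1 wide peak of replicate 1 (6.68-fold, 138 reads) lay over 2 peaks of replicate 2 (5.22-fold with 94 reads and 8.05-fold with 145 reads). This last site ended 138 nt and 137 nt before the 3′ end of the mRNA and had the highest pileup among all member peaks of replicate 2. Up to 132 bases of site 5 and up to 180 bases of site 6 also lie in exons of LTO1 on the opposite strand, and the deposited peaks carry no strand.

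CCND3, which encodes cyclin D3, spans chr6:41934934-42050357 on the minus strand, and all 4 of its sites were in both lists. Site 1 covered the start codon (chr6:41941473-41941963), with 6.86-fold and 10.7-fold and with 30 and 50 reads. Site 2 lay over the 3′ splice site of exon 2 (chr6:41940425-41940815), with 7.32-fold and 5.51-fold and with 52 and 45 reads. Its summits were 72 nt and 38 nt upstream of the exon of the canonical transcript, in bases that are 5′ UTR of another transcript. Replicate 2 was thus higher at the start codon and replicate 1 at exon 2.

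Site 3 of CCND3 ran from the intron in front of exon 5 across codons 238 to 292 and the stop codon (chr6:41935660-41936309). Fold was 5.96 in replicate 1 and 8.96 in replicate 2, with 53 and 78 reads, and the summits lay 1 bp apart in coding sequence. Site 4 was in the 3′ UTR (chr6:41935061-41935602), with 5.93-fold and 5.09-fold and with 44 and 37 reads. Peaks covered 73.4% of the canonical CCND3 mRNA of 2026 nt in replicate 1 and 52.5% in replicate 2. Among protein-coding genes with a peak, this share was at the 98.4 and 93.7 percentiles. Over the exons of all its transcripts the share was 29.3% and 22.9%, below the 46.7% and 43.2% of CCND1, so the order of these genes depends on the transcripts used.

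CCND1 and CCND3 are paralogs with 5 coding exons each, and their peaks fell on exons of the same number. Exons 1, 2 and 5 of both genes held peaks in both lists, whereas exon 3 and exon 4 of both genes held none in either list. The match is partial at exon 5, where the coding part and 3′ splice site lay under peaks of both lists in CCND3 but of replicate 2 only in CCND1. Exon 5 is also long, with 3357 nt in CCND1 and 1156 nt in CCND3, against 137 to 160 nt for the peak-free exons 3 and 4. These peak-free exons run from codon 139 to codon 241 in CCND1 and from codon 139 to codon 237 in CCND3. The exon 2 peaks began at codon 67 of both proteins because exon 2 itself begins there, and exon 2 is 216 nt long in both genes. The third D-type cyclin, CCND2, had no peak in any exon.

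The 3′ splice sites under these peaks are printed on the gene strand, since they let the paralogs be compared under the peaks, with intron bases in lower case and the first exon bases in capitals.
CCND1 exon 2 (chr11:69643016-69643045, plus strand): cccgtgcctccgtagGTCTGCGAGGAACAG
CCND3 exon 2 (chr6:41940571-41940600, minus strand): tgcgccctcccccagGTATGTGAGGAGCAG
CCND1 exon 5 (chr11:69651103-69651132, plus strand): ccctctctctctcagGACTGCCTCCGGGCC
CCND3 exon 5 (chr6:41936093-41936122, minus strand): ctcccatgttcccagGACTGCCTGCGGGCC

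At exon 2, 12 of the 15 exon bases and 7 of the 15 intron bases were identical between CCND1 and CCND3. At exon 5, 14 of 15 exon bases and 8 of 15 intron bases were identical. In both genes the last intron base and the first exon bases of exon 5 spell GGAC across the splice site. GGAC is the core of an m6A consensus, and this match was read in the unspliced sequence. The end of the preceding exon was not examined, so whether the spliced mRNA also holds GGAC there was not tested.

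CCND2 (chr12:4269771-4305353) has the longest mRNA of the D-type cyclins, at 6493 nt, yet no peak overlapped it. The nearest peak lay 19038 bp away in replicate 1 and 19048 bp away in replicate 2, with its summit in TIGAR and the overlapping ENSG00000285901. The E-type cyclin CCNE1 (chr19:29811991-29824312) also had none, with the nearest peak 109933 bp and 109054 bp away and its summit in C19orf12. A list holds only peaks past the caller's threshold, so an absence from it sets no upper limit on binding.

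CCNE2, which encodes cyclin E2 and lies on the minus strand at chr8:94879770-94896678, had 1 peak in replicate 1 and none in replicate 2. The peak (chr8:94881367-94881942) had 6.88-fold and 22 reads, and it covered codons 368 to 404, the stop codon and the first part of the 3′ UTR. Of its 576 bp, 380 also lie in exons of INTS8 on the opposite strand. Because the peaks carry no strand, reads of CCNE2 and INTS8 cannot be told apart there.

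CDK2, the partner of E-type cyclins, had no peak in its span of 6009 bp (chr12:55966781-55972789). The nearest peak lay 7344 bp away in replicate 1 and 8173 bp away in replicate 2, with its summit in RAB5B in both. CDK4, a partner of the D-type cyclins on the minus strand (chr12:57747727-57756013), had 2 peaks in replicate 1 and none in replicate 2. Site 1 (chr12:57751560-57751864) covered the start codon and codons 1 to 53, with 5.50-fold and 24 reads. Site 2 (chr12:57748338-57748806) covered codons 274 to 303 and the stop codon, with 8.90-fold and 41 reads. All 469 bp of site 2 lie in exons of TSPAN31 on the opposite strand, with MIR6759 annotated on the CDK4 strand, and 81.3% of its 31-base words occur once in hg38, against 100% at site 1.

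By reads, the 3 peaks of CCNE2 and CDK4 were not the weakest in replicate 1. Their 22 to 41 reads lay at or above the median of 22 reads over all peaks of that list, whereas the recurrent CDKN1B site had 12 reads. All 3 lay below the median of 42.5 reads of the member peaks in replicate 1. By fold, CDK4 site 1 exceeded only 22.6% of all peaks of that list. In the plot of mRNA coverage, CDK4 stood at 24.5% in replicate 1, above the 17.7% of CDKN1B, and CCNE2 at 14.2%, and both genes were at 0 in replicate 2.

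**Figure D2:**
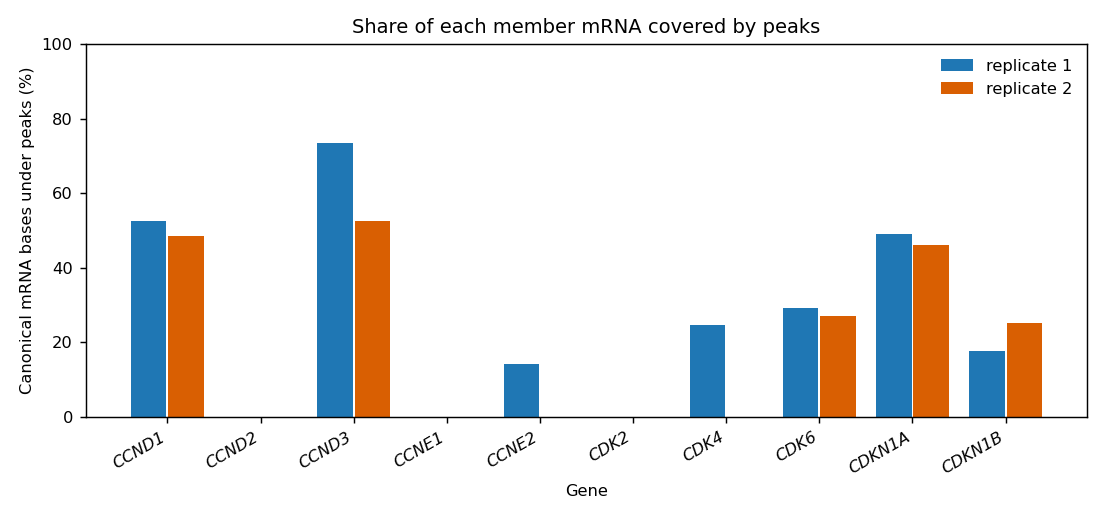
Percent of the bases of the canonical mRNA of each member that lay under a peak, with genes on the horizontal axis and 1 bar per replicate (blue, replicate 1; orange, replicate 2). CCND3 had the highest bars at 73.4% and 52.5% (over all transcripts CCND1 was higher, with 46.7% and 43.2% against 29.3% and 22.9%), CCNE2 and CDK4 had a bar in replicate 1 only, and CCND2, CCNE1 and CDK2 had none.

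CDK6, the other kinase partner of D-type cyclins, is the longest member, with 231653 bp on the minus strand (chr7:92604921-92836573) and an mRNA of 11663 nt. It held 10 peaks in replicate 1 and 11 in replicate 2, and 10 of its 11 sites were in both lists. Only 39 protein-coding genes, CDK6 included, had at least 10 recurrent sites, against 784 with at least the 4 of CCND1 and CCND3. Per kb of mRNA, CDK6 had 0.857 and 0.943 peaks, fewer than the 1.97 of CCND3 in each replicate and the 1.18 and 1.42 of CCND1.

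The first 5 sites of CDK6 had summits in introns, and the peaks of 4 of them covered a 3′ splice site. Site 1 (chr7:92833151-92833974) covered the start codon in exon 2, with 8.91-fold and 8.75-fold and with 34 reads in each replicate, and its summits lay 14 nt and 6 nt upstream of the exon. Site 2, in front of exon 3 (chr7:92774702-92775089), had 9.80-fold and 9.27-fold with 20 and 14 reads, and summits 61 nt and 60 nt upstream. Site 3, in front of exon 4 (chr7:92725658-92726024), had 12.6-fold and 8.65-fold with 29 and 14 reads, and summits 6 nt and 37 nt upstream. Site 5, in front of exon 5 (chr7:92671471-92671798), had 10.7-fold and 13.8-fold with 22 and 27 reads. Its summits lay farther from the exon, 91 nt and 103 nt upstream. Thus consecutive exons 2 to 5 of CDK6 each carried a recurrent peak that began in the preceding intron, with no replicate higher throughout.

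These 3′ splice sites are shown on the gene strand because each lay inside both peaks of its site, again with exon bases in capitals.
CDK6 exon 2 (chr7:92833676-92833705, minus strand): cgtctcctcctttagGTGCAATGATTCTGG
CDK6 exon 3 (chr7:92774817-92774846, minus strand): tgttttttcttctagGTTGTTTGATGTGTG
CDK6 exon 4 (chr7:92725779-92725808, minus strand): ttttaattttattagGATATGATGTTTCAG
CDK6 exon 5 (chr7:92671521-92671550, minus strand): cgcttgccattgcagGTCGTCACGCTGTGG

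Site 4 of CDK6 (chr7:92701735-92702041) was the only recurrent site far from an exon, with summits 23802 nt and 23725 nt away. It had 7.24-fold and 9.50-fold with 16 and 18 reads. RNU6-10P, annotated as a U6 pseudogene on the same strand, takes up 80 bases under both peaks, and 87.2% and 87.7% of the 31-base words of its peaks occur once in hg38. No peak lay between codon 201 and codon 279 of CDK6.

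The last 6 sites of CDK6 were in the terminal exon. Site 6 over the stop codon (chr7:92614891-92615456) was called in replicate 2 only, with 5.68-fold and 71 reads. Within the 3′ UTR of 10219 nt, site 7 (chr7:92613448-92614304) had 3.60-fold and 2.97-fold with 101 and 51 reads, and its summits were 507 bp apart. Site 8 (chr7:92608744-92609320) had 2.02-fold and 3.24-fold with 97 and 79 reads, and site 9 (chr7:92607091-92607459) had 2.76-fold and 3.37-fold with 102 and 67 reads. Site 10 (chr7:92606206-92606770) had 4.13-fold and 3.64-fold with 141 and 67 reads, and site 11 (chr7:92605678-92606120) had 3.15-fold and 5.65-fold with 102 and 100 reads. Reads were higher in replicate 1 at each of these 5 shared 3′ UTR sites, while fold was higher in replicate 2 at sites 8, 9 and 11. Site 7 ended at nt 3136 of the mRNA and site 8 began at nt 7264, with no peak between them.

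Between the intronic and the 3′ UTR sites of CDK6, fold and reads differed in opposite directions. The 5 peaks with summits in the 3′ UTR had 2.02-fold to 4.13-fold in replicate 1 and 2.97-fold to 5.65-fold in replicate 2, with 97 to 141 and 51 to 100 reads. The 5 peaks with intronic summits had 7.24-fold to 12.6-fold and 8.65-fold to 13.8-fold, with 16 to 34 and 14 to 34 reads. The ranges of both measures did not overlap between these groups in either replicate. The same comparison was not made over all peaks, so it does not set CDK6 apart from other genes. The local background recovered from the same values was 27.4 to 47.6 and 16.5 to 23.7 reads in the 3′ UTR, against 1.14 to 2.93 and 0.617 to 2.999 reads at the intronic summits. Fold is the pileup plus 1 over the background plus 1, so the 3′ UTR peaks had low folds with high pileups. By fold alone, site 8 of CDK6 exceeded only 0.0378% of the peaks of replicate 1.

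**Figure D3:**
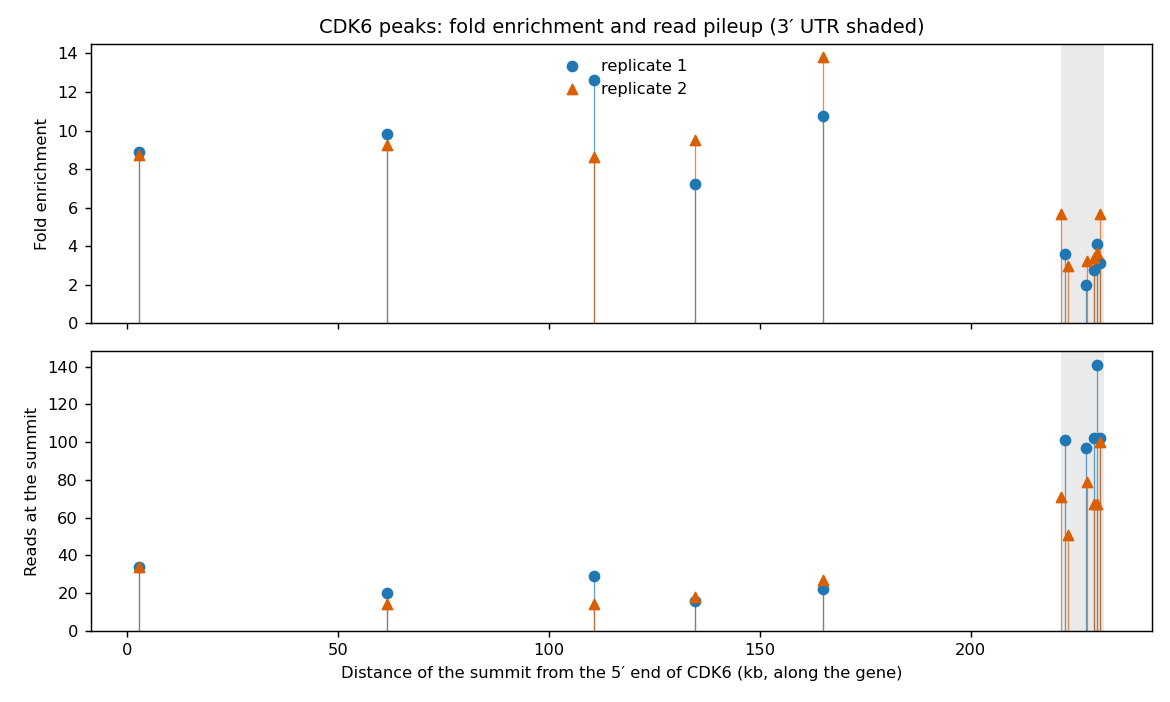
CDK6 peaks by the distance of their summit from the 5′ end of the gene, in kb along the gene, with fold enrichment in the upper panel and reads at the summit in the lower panel. Circles are replicate 1, triangles are replicate 2, and the grey band is the 3′ UTR; the intronic summits reach 13.8-fold with at most 34 reads, and the 3′ UTR summits reach 141 reads with at most 5.65-fold.

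CDKN1A (chr6:36676460-36687337, plus strand), which encodes the p21 inhibitor, had 1 recurrent site, all of it in the 3′ UTR (chr6:36685820-36687100). Fold was 8.25 in replicate 1 and 8.73 in replicate 2 (mean 8.49 ± 0.339, SD, n = 2), with 37 and 56 reads. The summits lay 4 bp apart, although the peaks were 1039 and 975 bp wide and shared 733 bp. The peaks covered 49.1% and 46.1% of the mRNA, and no coding base of CDKN1A lay under a peak.

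CDKN1B (chr12:12685498-12722369, plus strand), which encodes the p27 inhibitor, also had 1 recurrent site, but at the other end of its mRNA (chr12:12717417-12718020). The peaks covered part of the 5′ UTR, the start codon and codons 1 to 49 in replicate 1 and 1 to 61 in replicate 2. Fold was 6.42 and 7.56, with 12 and 11 reads, the lowest pileups among the member peaks in both lists. The summits were 84 bp apart, and no peak lay in the 3′ UTR of 1342 nt. Both inhibitors were thus recurrent with similar folds in both replicates, and their peaks lay in the 3′ UTR of one and over the start codon of the other.

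The recurrence of member peaks was high in both lists. In replicate 1, 20 of 24 member peaks (83.3%, exact 95% binomial interval 62.6% to 95.3%) overlapped a peak of replicate 2, and 60.1% of all peaks of that list did. In replicate 2, 21 of 23 (91.3%, interval 72.0% to 98.9%) overlapped, and 61.2% of all peaks of that list did. The intervals cover counting error only and treat peaks as independent, although the peaks of 1 gene share its RNA. CDK6 alone held 10 of the 24 and 11 of the 23 member peaks, and 10 of its 11 sites were in both lists. The intervals are therefore no test of the members against all peaks. Member peaks were also deeper, with a median of 42.5 and 56 reads against 22 in each whole list, and the part of depth in the recurrence was not tested. Their median fold was 6.55 and 5.68, below the 6.89 and 7.13 of all peaks.

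At the 20 shared sites, the summits were 1 to 507 bp apart with a median of 9.5 bp, and 16 pairs lay within 50 bp. Fold was higher in replicate 1 at 8 sites and in replicate 2 at 12, and the higher value was at most 1.79 times the lower, with a median ratio of 1.22.

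**Figure D4:**
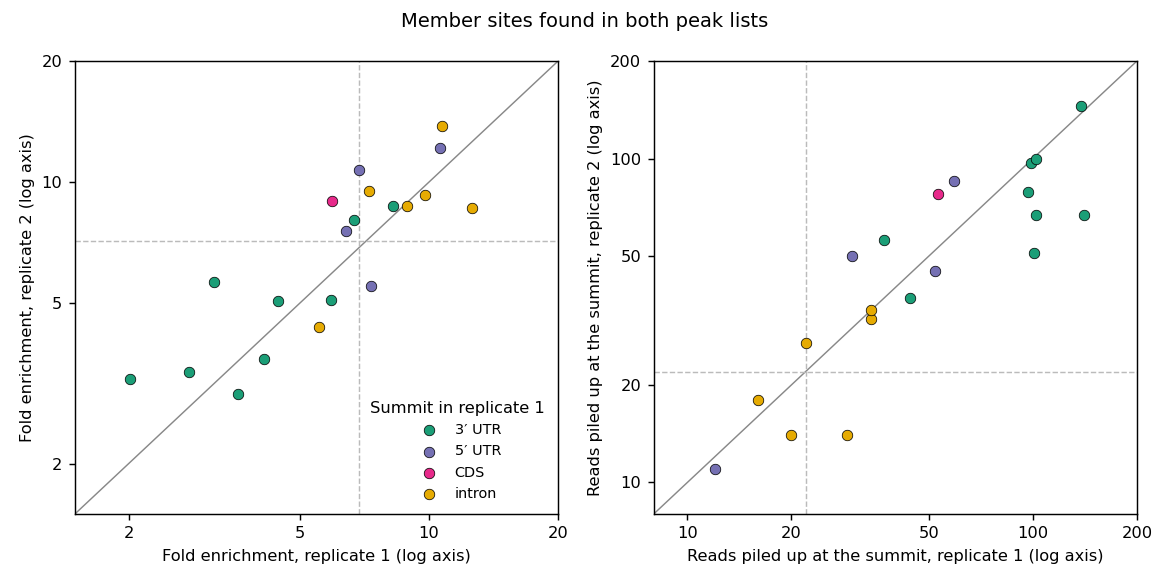
Fold enrichment (left) and reads at the summit (right) of the 20 member sites in both lists, replicate 1 on the horizontal and replicate 2 on the vertical log axis, coloured by the region of the replicate 1 summit. The solid line marks equal values and dashed lines mark the medians of all peaks (6.89 and 7.13 for fold, 22 reads in each list); the 5 CDK6 sites in the 3′ UTR lie at low fold and high reads, whereas the CDKN1A site (8.25-fold and 8.73-fold) lies above both medians of fold, and each site lies within 1.79-fold of the line in the left panel.

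Start codons lay under peaks in several members. Of the 7 members with a peak in replicate 1, 5 had a peak over the start codon (CCND1, CCND3, CDK4, CDK6 and CDKN1B), where 21.9% of all protein-coding genes with a peak did. In replicate 2 it was 4 of 5 members, the same without CDK4, where 32.8% of the genes did. These shares do not allow for the number of peaks per gene, which in replicate 1 ran from 1 in CDKN1B to 10 in CDK6. Over the stop codon, 3 of 7 members (CCND3, CCNE2 and CDK4) had a peak in replicate 1 and 2 of 5 (CCND3 and CDK6) in replicate 2, where 34% and 30% of the genes did. The stop codon peaks of CCNE2 and CDK4 also lie over exons of an opposite-strand gene, so their reads may not come from these members. CCND3 was the only member with a recurrent peak over both.

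By the region of the summit, 10 member peaks in each list were in a 3′ UTR (41.7% and 43.5%), against 24.9% and 20.3% of all peaks in protein-coding genes. In a 5′ UTR there were 5 and 4 (20.8% and 17.4%, against 7.49% and 13.6%), and in coding sequence 3 and 2 (12.5% and 8.70%, against 33.6% and 34.6%). Introns held 6 and 7 (25% and 30.4%, against 30.3% and 27.7%). The 5′ UTR counts include CCND3 site 2 in each list, whose summits are intronic in the canonical transcript. With 1 transcript per gene, the mean count of the lists was 3.5 in 5′ UTRs and 7.5 in introns, in place of 4.5 and 6.5. CDK6 alone gave 5 of the 10 3′ UTR summits in each list. Of the bases under member peaks, 55.7% and 49.7% were 3′ UTR, 15.9% and 18.4% coding sequence, 10.9% and 12.5% 5′ UTR, and 17.5% and 19.4% intron.

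Most intronic summits of member peaks were in peaks that reached an exon. In replicate 1, 5 of 6 such peaks (4 in CDK6 and 1 in CCND1) reached an exon, and in replicate 2 it was 6 of 7 (4 in CDK6 and 2 in CCND1). In each of these peaks the summit was upstream of the exon. The same held across the series, where 73.9% and 74.98% of peaks whose summit was intronic reached an exon of their gene, and 97.6% and 97.3% of these had the summit upstream of it. Summits in front of exons were thus common in both lists, and the cause was not tested.

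The motif GGAC was searched on the gene strand because the study relates binding by IGF2BP3 to m6A. All 20 shared intervals, 8047 bp in all, were searched in the unspliced sequence, and 12 held GGAC, with 26 matches. TGGAC, which contains GGAC, was in 6 intervals with 8 matches. DRACH (any base but C, then A or G, then AC, then any base but G), which takes in many GGAC matches, was in all 20 with 117 matches. CDKN1A had 4 GGAC and 2 TGGAC in 733 bp, and CDKN1B had 3 GGAC and 2 TGGAC in 427 bp. Longer intervals have more room for a match, and no share over all peaks was taken for whole intervals. These counts therefore do not show that the sites hold more motifs than other peaks. No GGAC was in CDK6 sites 2, 4, 5, 7, 8 and 9, in CCND1 site 4 or in CCND3 site 2.

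Shared sites with GGAC over a start codon or in a 3′ UTR are shown next. For each, the GGAC nearest the point midway between the closest summits of the 2 replicates is in capitals (any other is in lower case). The gene strand is written 5′ to 3′.
CCND1 site 1, 5′ UTR (chr11:69641248-69641277, plus strand): gagagccgagcgcGGACccagccaggaccc
CCND3 site 1, 5′ UTR (chr6:41941679-41941708, minus strand): gtcgcctgccttgGGACtcgcgagcccgca
CDK6 site 1, 5′ UTR (chr7:92833661-92833690, minus strand): gtgcaatgattctGGACtgagacgcgcttg
CDKN1B site 1, coding sequence (chr12:12717874-12717903, plus strand): gcctggagcggatGGACgccaggcaggcgg
CCND1 site 6, 3′ UTR (chr11:69654195-69654224, plus strand): cgggggccttgagGGACgctttgtctgtcg
CCND3 site 4, 3′ UTR (chr6:41935257-41935286, minus strand): cacaactttaagaGGACataatggggtcct
CDK6 site 10, 3′ UTR (chr7:92606389-92606418, minus strand): tcctccacatcatGGACcacaggtgtgcct
CDK6 site 11, 3′ UTR (chr7:92605934-92605963, minus strand): aattcactgcctgGGACacagtcttataag
CDKN1A site 1, 3′ UTR (chr6:36686371-36686400, plus strand): agggctgagctggGGACctggtaccctcct

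These matches lay 8 nt (CCND3 site 4) to 114 nt (CCND1 site 6) from the summits. In windows of the summit and 50 nt on each side, 7 of 24 member peaks (29.2%) and 8 of 23 (34.8%) held GGAC, against 28.8% and 31.9% of all peaks in protein-coding genes. TGGAC was in 2 peaks in each list (8.33% and 8.70%, against 10.0% and 10.2%), and DRACH in 20 and 21 (83.3% and 91.3%, against 81.1% and 77.1%). Around the midpoint of the peak in place of the summit, GGAC was in 16.7% and 21.7% of member peaks against 28.1% and 31.6% of all peaks, and TGGAC in 0% and 4.35% against 9.59% and 10.1%. The shares of GGAC and TGGAC at the members were thus close to those of all peaks at the summits and lower at the midpoints, and a match is a description of the sequence, not a measured m6A site.

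The other genes of the G1-S machinery, a list of 28, included 15 with peaks in both lists (53.6%, against 34.7% of all protein-coding genes). These 28 genes were chosen with earlier results of these data known, so their shares are a description. The peaks of both lists overlapped in 11 of the 28, against 5 of the 10 members and 30.5% of all protein-coding genes, and 10 had no peak in either list. Of the other CDK inhibitors, 3 of 5 had peaks in both lists (CDKN1C, CDKN2A and CDKN2B), and CDKN2C and CDKN2D had none. Among the retinoblastoma family, which D-type cyclin complexes phosphorylate, 2 of 3 genes (RB1 and RBL2) had peaks in both lists. The remaining gene of that family had peaks in replicate 1 only. In the E2F and DP group, 5 of 7 had peaks in both lists (E2F1, E2F2, E2F4, TFDP1 and TFDP2), whereas E2F3 had none. The ubiquitin ligase components SKP2 and FBXW7, the phosphatase CDC25A, the S-phase cyclin CCNA2 and the transcription factor MYC completed the 15. The peaks of CDC25A, RB1, E2F2 and TFDP1 did not overlap between the lists. None of the CDK-activating kinase genes CDK7, CCNH and MNAT1 had a peak in either list, nor did CKS1B, CCNB1, CDK1 or CDC6.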

How the data were processed

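IGF2BP3 LACE-seq peak lists of 2 OE-19 samples, labelled replicates 1 and 2 of 1 group, were analysed. The labels do not say whether these were separate cultures. Peaks had been called per replicate on hg38. The study's methods name Bowtie and Piranha, whereas the submitters' processing notes name fastp, HISAT2 and MACS2, and the files have the layout MACS2 writes; versions are not given in the sources used here.

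The authors deposited for each peak a start, an end and a summit (other columns, in bp) without strand, and a ratio, the fold enrichment of the summit against its local background. Each deposited p-value and each q-value is given as −log10. Library depth in reads is unknown. The pileup of reads was recovered as the whole number that gives both the deposited fold and p-value (tolerance 0.001 on the −log10 scale). It was found for 21142 of 21142 and 20799 of 20799 peaks, and the smallest was 4 reads in each list.

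Peaks overlapping a gene span by 1 bp were taken. Bases were classed over all GENCODE 44 transcripts as CDS, 3′ UTR (stop codon included), 5′ UTR, non-coding exon or intron, in this order, and mRNA positions follow the Ensembl canonical transcript. The start and stop codons were placed at the first and last coding base. Word counts of 31 bases covered 194 hg38 sequences, without alternate haplotypes. With 1 group there was no test, and shares are set beside those of all peaks or genes. The recovery of pileups, the region classes and the overlap search were tested on simulated data, and the other steps were not. The members, the list of 28 genes and the alternatives were chosen with earlier results of these data known. All 10 members are named, as are the listed genes with peaks in both lists or in neither, and genes with exons under a member peak or, for members without a peak in either list, with the nearest peak. Python 3.11.15 with pandas 2.3.3, NumPy 2.4.6 and SciPy 1.17.1 was used, and coordinates are 1-based.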

Additional observations from a re-analysis of the deposited data

How the results depend on the processing

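Of 72 alternative values for 16 results, 60 kept within the spread of the replicates or within 1.5 times the reported count. The mean recurrence of member peaks, 87.3%, was 80.9% with a reciprocal overlap of at least 0.5 of each peak (all peaks, 52.5%) and 68.1% with summits within 50 bp (all peaks, 34.4%). The mean of 2.5 member peaks in coding sequence was 4 by the class with the most bases. The share of peaks with a motif followed the window. GGAC went from 32.0% to 68.1% over whole peaks and to 19.2% around the midpoint, TGGAC from 8.51% to 38.3% and 2.17%, and DRACH from 87.3% to 100% over whole peaks. For whole peaks, no share over all peaks was taken. The share of exon bases under peaks rose from all transcripts to the canonical transcript, to 50.5% from 44.96% for CCND1, 63.0% from 26.1% for CCND3, 47.6% from 33.6% for CDKN1A and 21.4% from 5.57% for CDKN1B. Without the 6 peaks over exons of an opposite-strand gene, an alternative chosen after seeing the data, 5 members had peaks in both lists and recurrence was 92.7%. No paired analysis was possible because both samples belong to 1 group. Whether a site found in 1 list lay just under the threshold of the other was not tested.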
